A study of Mus musculus with 24 samples.

Results

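The genes described here are 10 that the tumour suppressor p53 is known to switch on and that act in cell death, measured in skin and bone of mice given proton irradiation: Bax, Bbc3, Pmaip1, Fas, Tnfrsf10b, Aen, Perp, Trp53inp1, Phlda3 and Eda2r. They were taken by name, from general knowledge of the pathway and with earlier results of these data known. They make up 10 of the 55471 gene identifiers measured. Gene positions are those of GENCODE M21 on GRCm38, where all 10 are protein-coding. The series is titled for a mouse sarcoma model. RNA came from female mice 10 weeks old, and the 24 libraries form 6 groups of 4, labelled as biological replicates: skin F-PRT, skin S-PRT, skin Untreated, bone F-PRT, bone S-PRT and bone Untreated. F-PRT is read here as FLASH proton radiotherapy, a beam delivered within a very short time, and S-PRT as standard proton radiotherapy at a conventional dose rate. Strain, genotype, dose, the time between irradiation and sampling and whether the mice carried a tumour are not stated in the labels, so the values describe 1 unstated time point.

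When DNA is damaged, p53 protein is stabilised and binds to response elements near its target genes. Some targets stop the cell cycle, and others start cell death by releasing cytochrome c from mitochondria (the BCL2 family branch) or by arming death receptors at the cell surface. Blood-forming cells of the marrow are known to enter p53-dependent death after irradiation more readily than most other cells, and basal cells of the epidermis also activate p53.

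A p53 response element is a pair of 10-base units, each close to the p53 consensus decamer, with a spacer of 0 to 13 bases between them. The window from 250 bases before to 50 bases after each RefSeq start site (GRCm38.p6) was searched for the pair with the fewest mismatches over its 20 positions. The consensus decamer is its own reverse complement, so 1 search covers both strands. RefSeq windows of 6 members (Bax, Bbc3, Fas, Aen, Phlda3 and Eda2r), 9 windows in all, are described here. None is described for Pmaip1, Tnfrsf10b, Perp and Trp53inp1. The best pairs of 4 members are shown to let the letters nearest to p53's consensus be set beside each gene's values, from the closest match to the consensus to the farthest, 5′ to 3′ on the gene's own strand, with the 10-base units in capitals and spacers in lower case.
Bax: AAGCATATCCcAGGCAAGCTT
Aen: GGGCTTGTCCgggcaagGAGCTTCCGC
Bbc3: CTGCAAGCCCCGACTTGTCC
Eda2r: AGATTAGGCTaGATCTAACTT
The Bax pair lies at chr7:45467090-45467110 on the minus strand, 212 bases before the start site, and has 1 mismatch. A pair with 1 mismatch or fewer was found in 1.09% of the 32851 RefSeq windows searched. The Aen pair, at chr7:78895937-78895963 on the plus strand, has 2 mismatches, which 10.1% of windows matched or bettered. Bbc3 has 3 mismatches at chr7:16309486-16309505 on the plus strand, a closeness that 45.1% of windows reached. Another Bbc3 window also had 3 mismatches and a further window had 6, while the shares given here are per window and not per gene. The best pairs of Fas and Phlda3, not shown, had 3 and 4 mismatches. Eda2r, the member with the largest change in bone, has 4 mismatches at chrX:97377411-97377431 on the minus strand, and 89.3% of windows held a pair as close. A match of this kind is a description of letters and not a binding site, and elements further away were not searched.

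Total expected counts, the reads that the authors' software assigned to genes, ran from 16418026 to 22088370 per skin library and from 10909700 to 17361478 per bone library. Levels are given as counts scaled to library size (CPM), and changes as log2 ratios of scaled counts with their standard error (SE) and an adjusted p from edgeR, read against 0.05. Keratinocyte markers were high in skin, where the 8 basal markers summed to between 8574 and 15909 CPM in 11 libraries and to 33115 CPM in S-PRT 4. Osteoblast markers were present in bone, at 1018 to 2295 CPM against 14.6 to 20.7 CPM in skin, so the tissue labels match the markers. S-PRT 4 of skin stood apart in other markers too. There the 6 endothelial markers summed to 5.8 CPM against 156 to 166 CPM in the other 3 of its group, and the 6 fibroblast markers to 288 against 3447 to 4577 CPM. In bone, irradiated and untreated libraries also differed in blood cell markers: neutrophil markers summed to 2987 to 14150 CPM in Untreated, 227 to 310 in F-PRT and 198 to 592 in S-PRT. Erythroid markers summed to 31080 to 41931 CPM in Untreated and 9519 to 16437 CPM after either beam, and macrophage markers stood at 314 to 675 CPM in Untreated against 776 to 1451 CPM. T cell markers stood at 20.6 to 50.8 CPM in Untreated and 62.8 to 134 CPM after either beam, and 6 of 6 rose after each, as did 4 of 6 endothelial and 5 of 6 osteoclast markers. Of all genes tested in bone, 15.5% rose after F-PRT and 13.3% after S-PRT. These are bulk tissues, so fewer cells of a type and less RNA per cell cannot be told apart, and the part of these shifts in the results below was not tested.

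Most of the 10 genes were higher after either beam in both tissues, and none passed the test downward. In skin 8 of the 10 were higher after F-PRT and 9 after S-PRT, where 1.00% and 1.83% of the 19038 genes tested were called higher. In bone 8 were higher after F-PRT and 7 after S-PRT, against backgrounds of 15.5% and 13.3% of 18848 genes, so a call in bone sets a gene less apart than a call in skin. Without skin Untreated 1 and S-PRT 4, bone Untreated 1, and bone F-PRT 2 and 3, which an earlier analysis held in doubt, the counts were 9 and 9 in skin, where 8.20% and 13.0% of genes were then called higher, and 7 and 7 in bone, where 12.4% and 14.8% were. Both beams were compared with the same Untreated libraries, so their results are not independent. The median log2 change of the members was 1.07 in skin after F-PRT and 1.22 after S-PRT, and 1.31 and 0.93 in bone, while the median over all genes tested lay between -0.02 and 0.00. All 10 members passed the filter on low counts in both tissues. On scaled counts the irradiated libraries did not overlap with the untreated ones for 8 members in skin F-PRT, 9 in skin S-PRT and 7 in each bone comparison. Over all genes tested, the share with every irradiated library above every untreated one was 8.02% and 3.81% in skin and 15.0% and 12.1% in bone, F-PRT first. Those that overlapped were Fas, Perp and Trp53inp1 in both bone comparisons, Perp in both skin comparisons and Bbc3 in skin F-PRT.

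**Figure D1:**
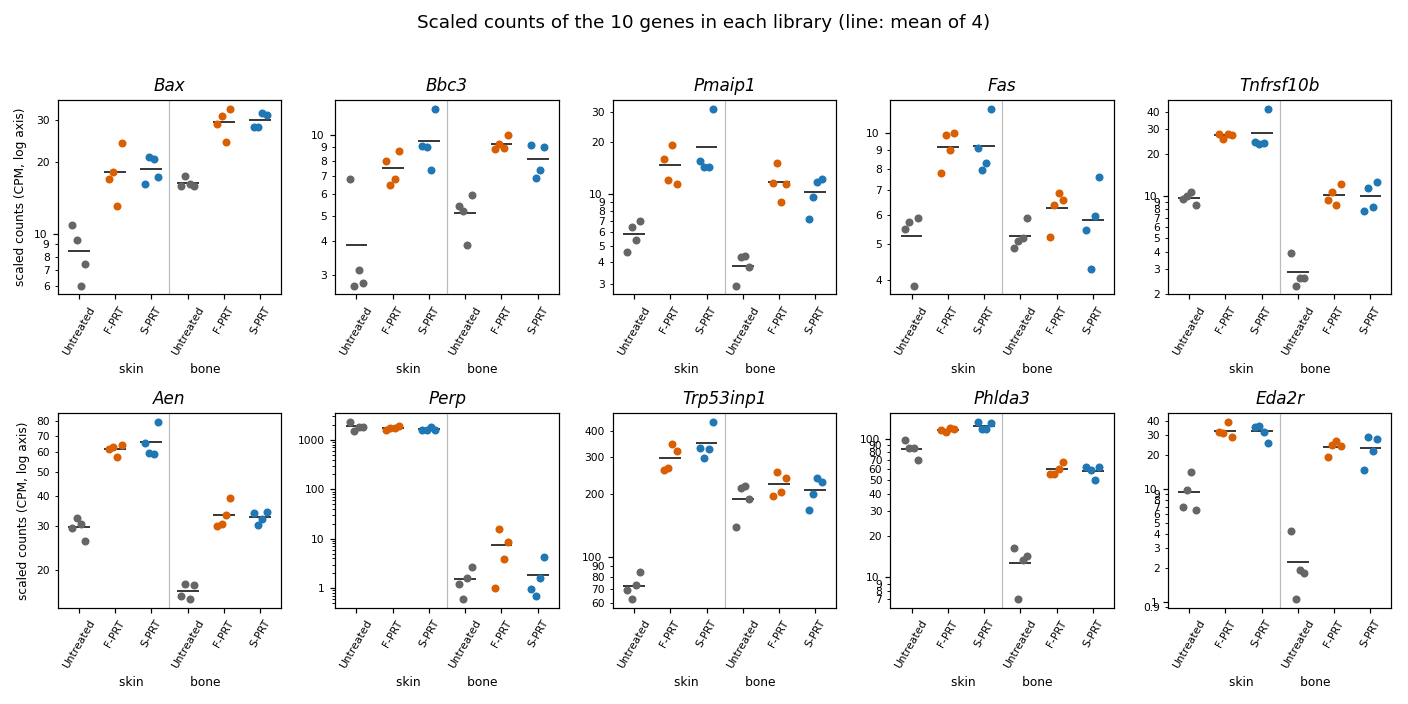
Scaled counts (CPM, log axis) of each gene in every library; points are libraries, lines the means of 4, grey Untreated, orange F-PRT and blue S-PRT, with skin left and bone right of the vertical line and each tissue scaled on its own. Eda2r in bone stands between 1.07 and 4.23 CPM untreated and between 14.8 and 29 CPM after the beams, while Perp in skin stays between 1532 and 2294 CPM in all 12 libraries.

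The BCL2 family branch is represented by Bax, whose protein forms pores in the outer mitochondrial membrane, and by Bbc3 and Pmaip1, which encode PUMA and NOXA, small activators that bind and neutralise the survival members of the family. Bax (chr7:45461697-45466898, minus strand) stood at 10.9, 9.38, 6.05 and 7.48 CPM in untreated skin, at 17, 18.2, 13.1 and 24 CPM after F-PRT and at 16.2, 21, 20.5 and 17.3 CPM after S-PRT. Every irradiated skin library lay above every untreated one. The rise was 2.14-fold after F-PRT (log2 1.10, SE 0.21, adjusted p = 0.0173) and 2.22-fold after S-PRT (log2 1.15, adjusted p = 0.0091). Bone held more Bax before treatment, 15.8, 17.5, 16.1 and 15.8 CPM, and 28.9, 31.3, 24.3 and 33.4 CPM after F-PRT. S-PRT bone libraries held 28.1, 28, 32 and 31.4 CPM, so the groups did not overlap here either. The changes in bone were log2 0.85 (SE 0.10, adjusted p = 4.91e-05) and 0.87 (SE 0.10, adjusted p = 4.9e-05). The annotation places another protein-coding model, Gm45808, over Bax on the same strand, and the counting may divide reads between them. In skin the F-PRT call for Bax was lost, with log2 0.93 to 1.15, when any of F-PRT 1, 2 or 4 or Untreated 2, 3 or 4 was left out (adjusted p = 0.0504 to 0.0632).

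For Bbc3 (chr7:16308393-16318205, plus strand) the untreated skin libraries were uneven: Untreated 1 held 6.84 CPM and the others 2.74, 3.14 and 2.8 CPM. F-PRT skin held 7.99, 6.5, 6.83 and 8.68 CPM and S-PRT skin 9.11, 9.03, 7.37 and 12.5 CPM. The F-PRT group thus overlapped with Untreated through that 1 library, and the S-PRT group did not. The log2 change was 0.95 after F-PRT (SE 0.29, adjusted p = 0.135), which did not pass, and 1.29 after S-PRT (SE 0.29, adjusted p = 0.027), which did. Without Untreated 1 the F-PRT value was log2 1.37 (adjusted p = 0.00556). The S-PRT call for Bbc3 needed each of S-PRT 1 and 2 and Untreated 2, 3 and 4 (log2 1.13 to 1.31 and adjusted p = 0.0549 to 0.0986 when one of them was left out). In bone Bbc3 rose from 5.42, 5.18, 3.87 and 5.96 CPM to 8.88, 9.26, 8.95 and 10 CPM after F-PRT and to 9.19, 6.91, 7.42 and 9.04 CPM after S-PRT. No irradiated bone library reached down to the untreated ones, and the changes were log2 0.86 (SE 0.15, adjusted p = 0.000927) and 0.67 (SE 0.15, adjusted p = 0.00548).

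Pmaip1 (chromosome 18, plus strand) stood at 4.62, 6.47, 5.38 and 6.93 CPM in untreated skin and at 16.1, 12.1, 19.3 and 11.5 CPM after F-PRT. S-PRT skin held 15.5, 14.3 and 14.3 CPM in 3 libraries and 31.4 CPM in S-PRT 4. All 8 irradiated skin libraries lay above the untreated ones. Pmaip1 rose 2.52-fold after F-PRT (log2 1.33, SE 0.28, adjusted p = 0.0257) and 3.22-fold after S-PRT (log2 1.69, SE 0.28, adjusted p = 0.00481), the latter 2.53-fold without S-PRT 4 (log2 1.34, adjusted p = 0.00159). The F-PRT call was lost without F-PRT 1 or 3 or Untreated 1, 2 or 3 (log2 1.18 to 1.39, adjusted p = 0.0588 to 0.0971). In bone the untreated libraries held 2.93, 4.27, 4.33 and 3.75 CPM. F-PRT bone held 11.6, 15.1, 8.95 and 11.4 CPM and S-PRT bone 7.13, 9.67, 11.8 and 12.3 CPM, with no overlap. Those are rises of log2 1.61 (SE 0.21, adjusted p = 8.57e-05) and 1.40 (SE 0.21, adjusted p = 0.000296).

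Another 3 members encode receptors of the tumour necrosis factor family. Eda2r, on the X chromosome (chrX:97333840-97377216, minus strand), encodes the receptor for the A2 isoform of ectodysplasin and had the largest change of any member in bone. Untreated bone held 4.23, 1.07, 1.93 and 1.81 CPM, F-PRT bone 19.2, 24.4, 26.5 and 24 CPM and S-PRT bone 14.8, 29, 21.6 and 27.6 CPM. The lowest irradiated library was thus above the highest untreated one, Untreated 1, by a wide margin. Behind these values stood 14 to 39 expected counts in the untreated and 260 to 437 in the irradiated libraries. Eda2r rose 10.9-fold after F-PRT (log2 3.45, 95% confidence interval 2.77 to 4.12, adjusted p = 4.71e-06) and 10.8-fold after S-PRT (log2 3.43, interval 2.75 to 4.10, adjusted p = 5.7e-06). In skin it started higher, at 6.9, 9.87, 14.1 and 6.51 CPM, and reached 31.9, 31.5, 39.2 and 28.7 CPM after F-PRT and 35.5, 36.2, 31.8 and 25.8 CPM after S-PRT. The skin groups did not overlap, and the changes were log2 1.81 (SE 0.23, adjusted p = 0.00109) and 1.79 (SE 0.23, adjusted p = 0.000787).

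Tnfrsf10b (chr14:69767472-69784411, plus strand) encodes the mouse death receptor for TRAIL. Its skin libraries were tight: 9.56, 10, 10.6 and 8.57 CPM untreated, and 27.7, 25.6, 27.6 and 27.2 CPM after F-PRT. S-PRT skin held 24.2, 23.4 and 23.8 CPM in 3 libraries and 41.8 CPM in S-PRT 4. Skin F-PRT was higher by log2 1.48 (SE 0.18, adjusted p = 0.000928) and skin S-PRT by 1.54 (SE 0.18, adjusted p = 0.000449), and S-PRT by 1.31 without S-PRT 4 (adjusted p = 1.66e-05). In bone Tnfrsf10b stood at 3.91, 2.29, 2.6 and 2.61 CPM untreated, 9.35, 10.6, 8.64 and 12.2 CPM after F-PRT and 7.82, 11.4, 8.32 and 12.5 CPM after S-PRT. Again no libraries overlapped, and the rises were 3.62-fold (log2 1.86, SE 0.21, adjusted p = 2.61e-05) and 3.55-fold (log2 1.83, SE 0.21, adjusted p = 3.71e-05).

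Fas (chr19:34290666-34327772, plus strand), the receptor for Fas ligand, passed the test in skin and not in bone, and the difference between the tissues did not pass. In skin it stood at 5.49, 5.76, 3.87 and 5.9 CPM untreated, 7.77, 9.84, 8.99 and 10 CPM after F-PRT and 9.11, 7.95, 8.28 and 11.6 CPM after S-PRT, with no overlap. It was higher by log2 0.80 (SE 0.18, adjusted p = 0.0391) and 0.81 (SE 0.18, adjusted p = 0.026). Those calls were close to the threshold: 9 of 23 other settings kept the F-PRT call, and leaving out any of 10 skin libraries ended it (log2 0.68 to 0.87, adjusted p = 0.0533 to 0.126). The S-PRT call was lost when S-PRT 1, Untreated 2 or Untreated 3 was left out (adjusted p = 0.056 to 0.0612). In bone Fas held 4.88, 5.11, 5.2 and 5.9 CPM untreated, 5.23, 6.37, 6.88 and 6.59 CPM after F-PRT and 5.48, 4.28, 5.97 and 7.59 CPM after S-PRT, and the groups overlapped. The bone changes were log2 0.25 (95% confidence interval -0.13 to 0.62, adjusted p = 0.308) and 0.14 (-0.24 to 0.52, adjusted p = 0.586). On the deposited TPM values, whose untreated bone libraries carry more small RNA, the same changes in Fas were 0.83 (adjusted p = 0.00305) and 0.71 (adjusted p = 0.00849), beside a shift of 0.58 and 0.52 in the median of all genes. Recentred on that median, Fas did not pass in bone after either beam.

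The remaining members act at other points. Aen (chr7:78895854-78911209, plus strand) encodes an exonuclease that cuts DNA in dying cells. It held 29.5, 32.5, 30.8 and 26.1 CPM in untreated skin, 61.9, 63, 57.1 and 64 CPM after F-PRT and 65.5, 59.5, 59.2 and 79.4 CPM after S-PRT. In bone it held 15.7, 17.5, 15.3 and 17.4 CPM untreated, 30.1, 30.6, 33.4 and 39.1 CPM after F-PRT and 34.1, 30.5, 32.2 and 34.3 CPM after S-PRT. Aen was the most even of the members: no groups overlapped, and its rise lay between 1.99-fold and 2.21-fold in all 4 comparisons. The log2 changes were 1.05 and 1.15 in skin (SE 0.12 each, adjusted p = 0.000417 and 0.000152) and 1.02 and 0.99 in bone (SE 0.10 each, adjusted p = 8.88e-06 and 1.21e-05).

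Phlda3 (chr1:135766119-135769136, plus strand) encodes a small protein that competes with the survival kinase AKT for membrane lipids. Bone held 16.4, 7.01, 13.4 and 14.3 CPM untreated, 55.4, 55.9, 60.7 and 68.1 CPM after F-PRT and 62.8, 59.7, 50.3 and 62.1 CPM after S-PRT. That is a rise of 4.72-fold (log2 2.24, SE 0.19, adjusted p = 3.15e-06) and 4.62-fold (log2 2.21, SE 0.19, adjusted p = 4.04e-06), with a wide gap between the groups. In skin Phlda3 was already at 97.2, 85.7, 85.8 and 69.8 CPM and reached 115, 111, 120 and 118 CPM after F-PRT and 132, 117, 118 and 129 CPM after S-PRT. These groups did not overlap either, but the changes were small, log2 0.45 (SE 0.10, adjusted p = 0.0402) and 0.55 (SE 0.10, adjusted p = 0.0101). The F-PRT call in skin was kept in 9 of 23 other settings, and leaving out any one of 10 libraries, S-PRT 1, 2 and 3 included, ended it (log2 0.37 to 0.48, adjusted p = 0.0558 to 0.136).

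Trp53inp1 (chr4:11156431-11174379, plus strand) encodes a nuclear protein that works with p53 in apoptosis and autophagy, and showed the reverse pattern. Untreated skin held 69, 62.9, 73.2 and 84.3 CPM, F-PRT skin 259, 264, 346 and 321 CPM and S-PRT skin 329, 296, 328 and 440 CPM. The groups were far apart, and the rises of 4.11-fold (log2 2.04, SE 0.16, adjusted p = 2.74e-05) and 4.81-fold (log2 2.27, SE 0.16, adjusted p = 1.03e-05) were the largest of the members in skin. In bone the untreated libraries held 139, 212, 218 and 188 CPM, against 194, 253, 204 and 238 CPM after F-PRT and 167, 200, 237 and 228 CPM after S-PRT. Those ranges overlapped, and the changes of log2 0.23 (95% confidence interval -0.10 to 0.56, adjusted p = 0.272) and 0.14 (-0.19 to 0.47, adjusted p = 0.547) did not pass. On deposited TPM, where the median of all genes in bone shifted by 0.58 after F-PRT and 0.52 after S-PRT, Trp53inp1 changed by 0.92 (adjusted p = 0.00352) and 0.80 (adjusted p = 0.00947) before recentring on that median, and did not pass after it.

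**Figure D2:**
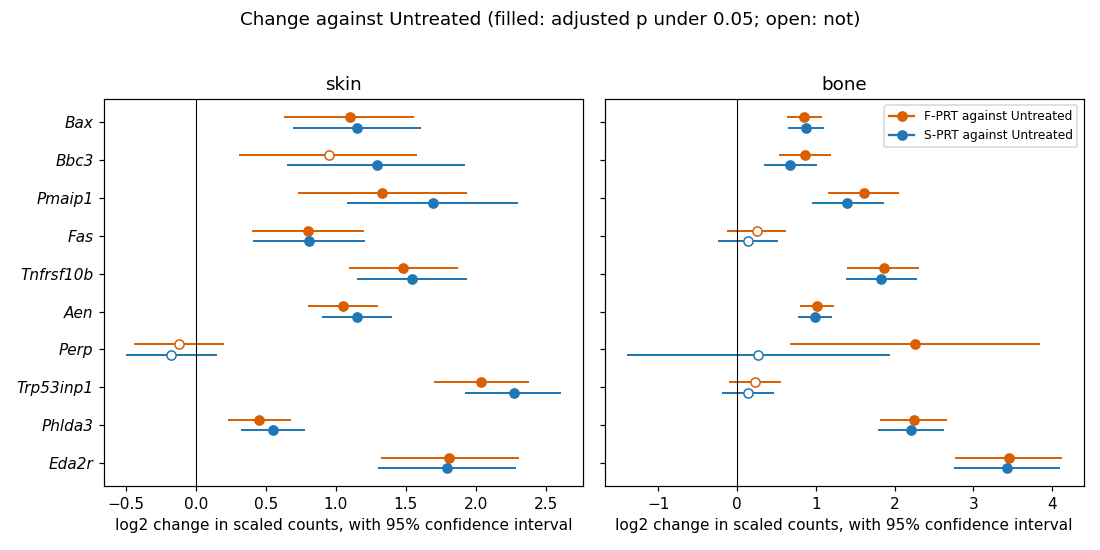
Log2 change in scaled counts against Untreated with 95% confidence intervals, skin left and bone right, orange F-PRT and blue S-PRT; filled points have an adjusted p under 0.05. In skin Trp53inp1 has the largest change (2.04 and 2.27) and in bone Eda2r (3.45 and 3.43), while Fas and Trp53inp1 in bone, Perp in skin and Perp in bone after S-PRT have intervals that include 0.

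Perp (chr10:18845020-18857073, plus strand) encodes a membrane protein of desmosomes, the junctions that hold epidermal cells together, and is also a target of the p53 relative p63 in stratified epithelia. In skin it was very abundant and even: 2294, 1532, 1809 and 1850 CPM untreated, 1578, 1747, 1699 and 1863 CPM after F-PRT and 1560, 1615, 1841 and 1605 CPM after S-PRT. The changes were log2 -0.12 (95% confidence interval -0.44 to 0.20, adjusted p = 0.772) and -0.18 (-0.50 to 0.15, adjusted p = 0.609). In bone it was nearly absent, with 1.19, 0.61, 1.6 and 2.61 CPM untreated, 1, 16, 3.83 and 8.52 CPM after F-PRT and 0.97, 0.691, 1.57 and 4.17 CPM after S-PRT. The F-PRT group spread from 1 to 16 CPM and overlapped with Untreated. Its change passed the test (log2 2.26, SE 0.74, adjusted p = 0.0314), and the S-PRT change did not (log2 0.27, SE 0.78, adjusted p = 0.828).

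The bone libraries high in Perp were also those high in markers of differentiated keratinocytes, a cell type of the epidermis. The 8 markers, 7 of which passed the filter in bone and none of which was at 0 throughout, summed to 4.12, 0.915, 1.33 and 1.41 CPM in untreated bone. They summed to 0.941, 172, 29.9 and 52.2 CPM in F-PRT bone and to 4.17, 2.56, 3.86 and 25.5 CPM in S-PRT bone, so the 4 libraries highest in Perp (F-PRT 2, 3 and 4 and S-PRT 4) were the 4 highest in the markers. The part of these markers in the Perp value was not tested. Without F-PRT 2 the change was log2 1.54 (adjusted p = 0.129), and leaving out F-PRT 4 or Untreated 1, 2 or 3 also ended the call (log2 1.99 to 2.28, adjusted p = 0.0524 to 0.0859).

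**Figure D3:**
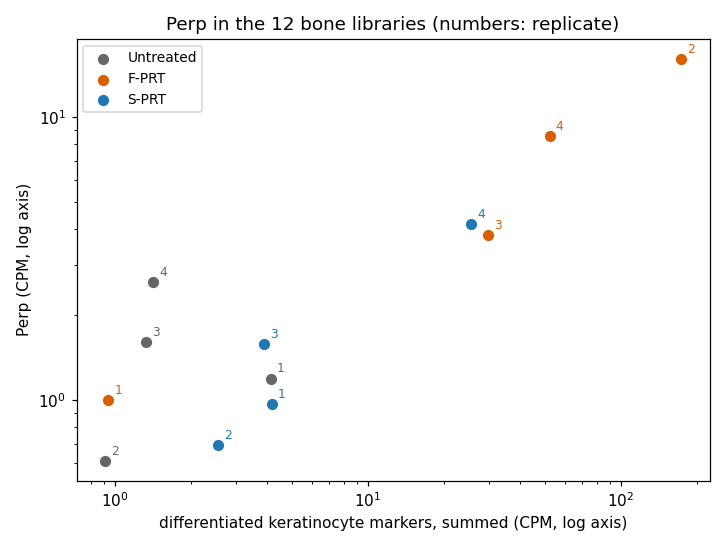
Perp against the summed differentiated keratinocyte markers in the 12 bone libraries (both CPM, log axes; grey Untreated, orange F-PRT, blue S-PRT; numbers are replicates). F-PRT 2 has the highest value on both axes, 16 and 172 CPM, and F-PRT 1 lies among the untreated libraries at 1 and 0.941 CPM.

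Whether a beam moved a member by a different amount in skin than in bone was tested as an interaction over all 24 libraries, with the value given as the skin change minus the bone change on the log2 scale. After F-PRT 4 of the 10 members differed, where 10.7% of the 20754 genes tested were called in either direction. After S-PRT 3 differed, against 9.45% of genes. Trp53inp1 moved more in skin, by 1.79 after F-PRT (SE 0.22, adjusted p = 2.06e-05) and 2.11 after S-PRT (SE 0.22, adjusted p = 2.46e-06). Phlda3 moved more in bone: the difference was -1.81 after F-PRT (SE 0.22, adjusted p = 1.68e-05) and -1.68 after S-PRT (SE 0.22, adjusted p = 3.56e-05). So did Eda2r, at -1.64 (SE 0.40, adjusted p = 0.00984) and -1.63 (SE 0.40, adjusted p = 0.0103). Phlda3 and Eda2r started higher in skin and Trp53inp1 started higher in bone. In each of these 3 genes, picked by this test, the tissue with the lower untreated level had the larger rise. The same Untreated libraries enter the starting level and the rise, so they are not independent. Aen, Tnfrsf10b and Pmaip1 also started higher in skin and Bax in bone, and their differences in rise did not pass. Perp differed after F-PRT alone (-2.40, SE 0.76, adjusted p = 0.0439), a call lost when any of 16 libraries was left out, bone F-PRT 2 most of all (-1.67, adjusted p = 0.15). For Bax, Bbc3, Pmaip1, Fas, Tnfrsf10b and Aen the interaction did not pass for either beam. The F-PRT intervals for these 6 genes were narrowest for Aen (-0.30 to 0.32) and widest for Pmaip1 (-1.04 to 0.45), and Fas had the lowest p-values, with 0.53 (0.02 to 1.05, adjusted p = 0.188) after F-PRT and 0.64 (0.13 to 1.16, adjusted p = 0.114) after S-PRT. Without skin Untreated 1 the S-PRT difference in Bbc3 passed, at 1.02 (adjusted p = 0.00897).

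The beams were then compared with each other, the comparison that the series title names. No member differed between F-PRT and S-PRT in skin, where 0 of all genes (0%) passed in edgeR, 522 had an unadjusted p under 0.05 and 4 passed in DESeq2. None did in bone, where 0.00531% of all genes, 1 gene, passed in edgeR, 634 had an unadjusted p under 0.05 and 19 passed in DESeq2. Every member had an adjusted p of 0.999 in skin and of 1 in bone, and only Perp in bone had an unadjusted p under 0.05 (log2 1.99, 95% confidence interval 0.45 to 3.52), with the library values given above. A difference that misses the threshold does not show that the beams act alike, and the intervals say how large a difference these libraries leave room for. In bone, apart from Perp, the tightest log2 intervals were those of Aen (-0.19 to 0.23) and Bax (-0.24 to 0.20), and the widest was that of Eda2r (-0.53 to 0.57). In skin Phlda3 (-0.32 to 0.13) and Aen (-0.35 to 0.15) were the tightest, while Bbc3 (-0.96 to 0.28) and Pmaip1 (-0.94 to 0.23) left room for the largest excess of S-PRT over F-PRT. The median log2 difference of the members was -0.08 in skin and 0.06 in bone, where the median over all genes tested was -0.02 and 0.01. Most members moved together across libraries, so their differences are not independent of one another. Without skin S-PRT 4 the skin difference in Pmaip1 was -0.00, against -0.35 with it, and that in Bbc3 was -0.19, against -0.34. Fas (0.11) and Tnfrsf10b (0.18) were then positive in skin and Eda2r was negative (-0.08).

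**Figure D4:**
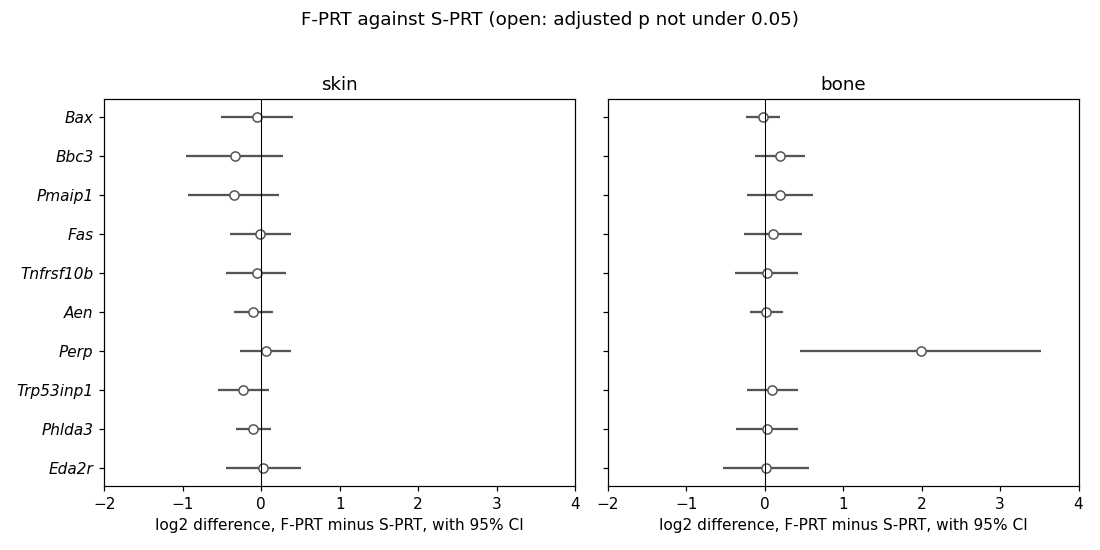
Log2 difference in scaled counts, F-PRT minus S-PRT, with 95% confidence intervals, skin left and bone right; open points did not pass the adjusted p threshold of 0.05. All 10 skin intervals include 0, as do those of 9 members in bone, Perp being the exception at 0.45 to 3.52.

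Untreated tissues differed in most genes tested, most of these transcripts among them. Between untreated skin and untreated bone 6 members were higher in skin and 2 lower, where 65.2% of all genes tested differed in either direction. Perp was 1306-fold higher in skin (log2 10.35, SE 0.74, adjusted p = 4.05e-11), Phlda3 7.16-fold (log2 2.84), Eda2r 4.59-fold (log2 2.20), Tnfrsf10b 3.69-fold (log2 1.88), Aen 1.94-fold (log2 0.95) and Pmaip1 1.63-fold (log2 0.70, adjusted p = 0.0236). Pmaip1 no longer passed without skin Untreated 2 or 4 or bone Untreated 1 (log2 0.58 to 0.65, adjusted p = 0.0538 to 0.0794). Trp53inp1 (log2 -1.29, SE 0.16, adjusted p = 2.97e-07) and Bax (log2 -0.84, SE 0.18, adjusted p = 0.000235) were lower in skin. Fas (log2 0.10, adjusted p = 0.654) and Bbc3 (log2 -0.28, adjusted p = 0.316) did not pass, and Bbc3 did without skin Untreated 1 (log2 -0.72, adjusted p = 0.00178).

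To compare genes with one another, levels corrected for transcript length (TPM) are needed, given as the mean ± SD of 4 libraries. In untreated skin Perp led at 645 ± 217 TPM, followed by Phlda3 at 49.9 ± 16 TPM, with no overlap between them. Aen (9.42 ± 1.42), Trp53inp1 (9.22 ± 0.73) and Bax (7.19 ± 2.94) came next, each overlapping with its neighbour. The last 5, Bbc3 and Fas (2.54 each), Tnfrsf10b (2.07), Eda2r (1.56) and Pmaip1 (1.35), overlapped from each gene to the next. After F-PRT the order at the top of skin was Perp (689 ± 43.3 TPM), Phlda3 (85 ± 14), Trp53inp1 (44.3 ± 7.27), Aen (21.8 ± 1.43) and Bax (17.5 ± 2.27), each clear of the next. After S-PRT those 5 kept that order, with Phlda3 (91 ± 27.9) overlapping Trp53inp1 (52.3 ± 9.65), and Aen (24.4 ± 5.05) overlapping Bax (18.9 ± 4.29).

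In untreated bone Trp53inp1 led at 24.2 ± 7.97 TPM and overlapped with Bax at 12.7 ± 2.69 TPM. Phlda3 (6.2 ± 2.15), Aen (4.74 ± 1.24), Bbc3 (2.64 ± 0.688) and Fas (2.52 ± 0.659) overlapped one after another below them. Pmaip1 (0.932 ± 0.214) stood clear of its neighbours, and Tnfrsf10b (0.557), Perp (0.515) and Eda2r (0.33 ± 0.141) closed the order. After F-PRT Phlda3 (49.3 ± 5.78 TPM), Trp53inp1 (44.3 ± 4.92) and Bax (38.9 ± 5.36) shared the top with overlapping ranges, and Eda2r (6.5 ± 1.23) had moved from the last place to the sixth. S-PRT bone gave the same first 8 places, with Phlda3 at 46.4 ± 4.17 and Eda2r at 6.12 ± 1.78 TPM.

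Across the 12 libraries of a tissue, which share their scaling and treatment groups, the members were set against the mean of the other 9 on centred log2 CPM, as a description. In skin 9 members had a Pearson r from 0.860 (Bax) to 0.985 (Aen), and Perp had -0.414. In bone the 7 called members after both beams had r from 0.888 (Bbc3) to 0.945 (Tnfrsf10b), while Fas (0.555), Trp53inp1 (0.473) and Perp (0.467) were lower. The other genes with the pattern most like the members' mean in skin, of 13006 compared, were Mcam (r = 0.996), Krt7 (0.994), Igsf9b (0.993), Dcxr (0.991) and Zmat3 (0.989). In bone, of 13063, they were Trdc (0.982), Folr2 and Lacc1 (0.981 each) and Tlr3 and Dse (0.980 each).

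The genes around the members were read from lists, which were also chosen with earlier results of these data known. Trp53 itself, the gene of p53, which is mainly controlled through its protein, did not pass in any comparison with Untreated: the log2 change was -0.22 and 0.06 in skin and 0.25 and 0.24 in bone (adjusted p = 0.17 to 0.944). Mdm2, whose protein degrades p53, rose in skin by log2 0.71 (adjusted p = 0.00221) and 0.66 (adjusted p = 0.00254), and stood at 0.20 and 0.17 in bone (adjusted p = 0.0922 and 0.179). Cdkn1a, the p53 target that arrests the cell cycle, rose by log2 2.95 and 2.97 in bone and by 0.90 and 0.89 in skin. Of 30 other p53 targets of arrest, feedback, repair and metabolism, Cdkn1a and Mdm2 among them, 12 rose and 0 fell in skin after F-PRT, and 15 rose and 0 fell after S-PRT. In bone 14 rose and 6 fell after F-PRT, and 15 rose and 6 fell after S-PRT. The share of all genes called higher was 1.00% and 1.83% in skin and 15.5% and 13.3% in bone, F-PRT first. The share called lower was 1.39% and 2.52% in skin and 17.2% and 15.2% in bone, so the 6 that fell in bone are a share near that of all genes. The median log2 change of the 30 targets was 0.59 and 0.69 in skin and 0.41 and 0.38 in bone. Dcxr (2.37 and 2.72), Dglucy (2.03 and 2.06) and Polk (1.62 and 1.75) were among the skin genes, and Zmat3 (2.22 and 2.14) and Ephx1 (2.17 and 2.18) among the bone genes. Among 13 family members and regulators of p53, 13 tested in skin and 12 in bone, Mdm2 alone rose in skin after F-PRT and Trp73 (0.99) beside it after S-PRT. In bone Trp63 (1.37) and Ppp1r13l (0.64) rose after F-PRT, and Usp7 (-0.50), Chek2 (-0.54) and Mdm4 (-0.34) fell, with 0.11, 0.30 and 0.40 on TPM as deposited. Trp63 is also a marker of basal keratinocytes. In bone F-PRT 5 of the 7 tested basal markers, Trp63 included, rose and 1, Itga6, fell, while 5 of 5 tested desmosome genes rose. In bone S-PRT 2 of the 7 basal markers, Trp63 included, rose and 1 fell, and 0 of the 5 desmosome genes rose. The part of these markers in the value of Trp63 was not tested. After S-PRT in bone Trp63 rose (1.14, adjusted p = 0.0306) and Usp7 fell (-0.41, adjusted p = 0.0278; 0.13 on TPM as deposited).

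Of the 4 survival members that Bax and its activators are set against, Bcl2l1 was the 1 whose change differed between the tissues. Bcl2l1, the gene of BCL-XL, fell in bone (log2 -1.41 after F-PRT, SE 0.11, adjusted p = 1.04e-06, and -1.23 after S-PRT, adjusted p = 3.52e-06), from 133 to 145 CPM untreated to 46.7 to 63.4 CPM after either beam. The part in this fall of the shifts in blood cell markers of bone, given above, was not tested. In skin the changes of Bcl2l1 were 0.17 and 0.16 (adjusted p = 0.681 and 0.68), and the tissues differed by 1.56 and 1.38 (adjusted p = 2.84e-05 and 0.000102). Bcl2 rose in bone by 0.36 and 0.45 and in skin after S-PRT by 0.39 (adjusted p = 0.0426), and Bcl2l2 rose in bone by 0.40 and 0.32. Mcl1 did not pass anywhere (adjusted p = 0.0639 to 0.937). By level Mcl1 led these genes in skin, at 24.9 ± 4.25 TPM untreated, and Bcl2l1 led in untreated bone, at 42.2 ± 8.63 TPM. Of the other effectors and activators, 6 of 8 were tested. Bok fell in skin (-0.48 and -0.45) and rose in bone (0.58 and 0.63), and Bcl2l11, the gene of BIM, rose in bone (0.28 after each beam) and in skin after S-PRT (0.52, adjusted p = 0.0484).

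Downstream of the mitochondria, Apaf1 forms the apoptosome with cytochrome c. It rose in skin from 16.6, 20.7, 14 and 20.1 CPM to 44.8, 42.6, 43.7 and 46.1 CPM after F-PRT and 42.6, 54.4, 47.6 and 56.3 CPM after S-PRT. These are changes of log2 1.31 (SE 0.14, adjusted p = 0.000286) and 1.49 (SE 0.14, adjusted p = 7.79e-05). In bone Apaf1 fell (log2 -0.52 and -0.55, adjusted p = 0.00114 and 0.000967), although TPM as deposited gave 0.18 and 0.14. The skin and bone changes of Apaf1 differed by 1.81 (adjusted p = 4.92e-07) and 2.02 (adjusted p = 7.18e-08). Of the 17 genes of the apoptosome, caspases and their inhibitors, Apaf1 was the 1 that passed in skin after F-PRT. In bone 1 rose and 4 fell after F-PRT, Cycs (0.42) upward and Birc5, Pidd1 and Birc2 (-0.63, -0.52 and -0.25) downward beside Apaf1, where TPM as deposited gave 0.11, 0.01 and 0.63 for those 3 genes. After S-PRT 1 rose (Casp6, 0.34) and 3 fell. Both falls are near the 17.2% and 15.2% of all genes called lower in bone, where 15.5% and 13.3% were called higher.

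Of the ligands for the death receptors among the members, Fasl, the ligand of Fas, had 0 to 7 expected counts per skin library and was left out by the filter there. In bone it had 3 to 32 counts and did not pass (log2 0.78 and 0.45, adjusted p = 0.154 and 0.449). Tnfsf10, the gene of TRAIL, rose in bone by 0.85 (adjusted p = 0.000496) and 0.56 (adjusted p = 0.00858), and did not pass in skin (-0.16 and -0.50, adjusted p = 0.909 and 0.613). Eda, whose A2 isoform binds the Eda2r receptor, rose in bone from 5.53 to 6.4 CPM to 11.2 to 13.5 CPM after F-PRT (log2 0.99, adjusted p = 4.05e-05) and to 9.12 to 11.5 CPM after S-PRT (log2 0.74, adjusted p = 0.000497). In skin Eda stood at -0.14 and 0.06 (adjusted p = 0.778 and 0.906), and the counts do not separate its isoforms. By TPM in untreated bone Tnfsf10 (1.99 ± 0.648) stood above Eda (0.948 ± 0.294) and Fasl (0.297 ± 0.22). Of 16 ligands and signalling genes, 5 rose and 1 fell in bone after F-PRT and 3 rose and 1 fell after S-PRT. Tnf was the 1 that fell (-0.87 and -0.77). Of all genes tested in bone, 15.5% and 13.3% were called higher and 17.2% and 15.2% lower, F-PRT first. In skin 1.39% and 2.52% were called lower. Of the 14 tested in skin, 0 passed after F-PRT, and 2 fell after S-PRT, Tnf (-1.29, adjusted p = 0.0366) and Traf2 (-0.52, adjusted p = 0.0489).

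**Figure D5:**
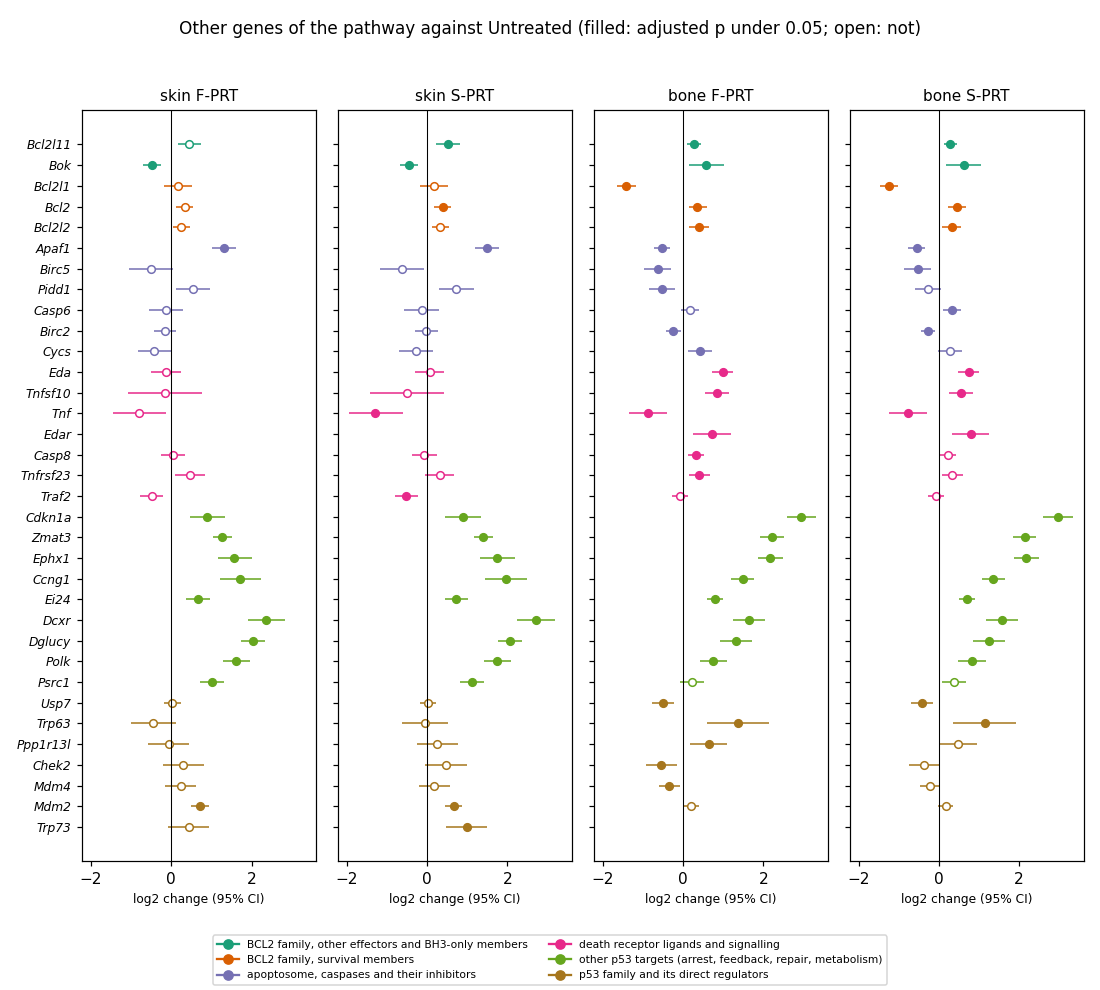
Log2 change against Untreated with 95% confidence intervals for genes of 6 lists that passed in a comparison of either tissue (at most 6 per list and tissue); colours mark the lists, filled points an adjusted p under 0.05, and a missing point a gene not tested. Apaf1 lies right of 0 in skin (1.31 and 1.49) and left of it in bone (-0.52 and -0.55), and Bcl2l1 falls in bone (-1.41 and -1.23).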

How the data were processed

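RNA from 12 skin and 12 bone libraries was polyA-selected and sequenced as paired reads, per the labels' protocols. The submitters' processing notes name RSEM, STAR, cutadapt and FastQC with GRCm38 as build, and the sources used here give no versions, annotation or library strand. The deposited files hold 1 row per gene with expected counts and TPM values made by the authors, per the file headers. TPM is scaled to each library's total, and small RNA models held 47.6 to 65.8% of it in untreated bone against 38.1 to 46.8% after irradiation, so TPM was used for the order of genes and, as log2 of TPM plus 0.5 with limma 3.58.1, as an added alternative. GENCODE M21 named 55230 of the 55471 identifiers.

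Expected counts were rounded to whole numbers and tested with edgeR 4.0.16 (quasi-likelihood, TMM scaling, filterByExpr) in R 4.3.3, on the 12 libraries of a tissue, or on all 24 for differences between tissues. The p-values were Benjamini-Hochberg adjusted over all genes tested. Intervals are at 95%, and p-values and intervals measure the spread between libraries labelled biological replicates. Replicate pairs differed by more than counting error (chi-square per degree of freedom 9.54 to 210). The steps were also run on simulated counts with known changes and no deviating library, so that run does not cover the libraries in doubt.

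The members and lists were chosen with earlier results of these data known. All members were named. From each list and tissue up to 6 genes past the test against Untreated were eligible, by smallest p, with 1 item not reported here, beside Trp53, Mdm2, Cdkn1a, the ligands Fasl, Tnfsf10 and Eda and the survival genes Bcl2, Bcl2l1 and Mcl1. The 5 genes most like the members' mean had to reach a mean of 2 CPM and not be named Gm or Rik. Alternatives were RLE scaling, DESeq2 1.42.0, weighted limma voom, every gene kept or only those at 1 CPM in at least 4 libraries, the replicate block, the 8 compared libraries alone and each library left out. Another left out the libraries that an earlier analysis doubted: Untreated 1 and S-PRT 4 of skin, and Untreated 1, F-PRT 2 and F-PRT 3 of bone. Added after seeing the data were TPM as deposited, TPM recentred on the median gene, and counts without small RNA models.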

Additional observations from a re-analysis of the deposited data

Results flagged for a closer look

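For 3 member values, 1 library stood far from the other 3 of its group, of 60 groups looked at over the 10 members, where chance alone picks out about 1 group in 20. Bbc3 in skin Untreated 1 was 6.84 CPM, against 2.74 to 3.14 CPM in the others. Pmaip1 and Tnfrsf10b were highest in skin S-PRT 4, at 31.4 and 41.8 CPM, the library with few endothelial and fibroblast transcripts, whose part in these values was not tested.

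Members whose change differed between skin and bone in the interaction test were Trp53inp1 (log2 1.79 after F-PRT and 2.11 after S-PRT, higher in skin), Phlda3 (-1.81 and -1.68), Eda2r (-1.64 and -1.63) and, after F-PRT, Perp (-2.40). The first 3 genes kept their calls in all 31 other settings, except Eda2r after S-PRT with the replicate block (-1.63, adjusted p = 0.0547). The Perp call held in 12 of 31.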

How the results depend on the processing

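Between 4 and 9 of the members passed in skin after F-PRT, depending on the setting, against 8 as reported: 5 with the replicate block, 5 on TPM recentred on the median gene and 4 to 8 with 1 library left out. Skin S-PRT gave 7 to 9 (9 reported), bone F-PRT 7 to 10 (8) and bone S-PRT 7 to 9 (7). Differences between tissues gave 3 to 4 members after F-PRT (4) and 2 to 5 after S-PRT (3), the 5 without the libraries in doubt, where Bbc3 (0.86, adjusted p = 0.021) and Tnfrsf10b (-0.70, adjusted p = 0.0332) joined. F-PRT against S-PRT gave 0 members in every setting run. The replicate block also ended the calls of Pmaip1, Fas and Phlda3 in skin after F-PRT (adjusted p = 0.0541, 0.0557 and 0.08) and of Perp between tissues (0.168). Same-numbered libraries correlated above 0.1 in 6 of 12 skin and 3 of 12 bone pairs (r -0.31 to 0.34), and in 1 of 12 skin and bone pairs. Differently numbered pairs were not set beside them, so these values cannot show whether the numbers pair the samples. The main fits treated all libraries as independent.

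TPM as deposited turned the sign in bone of Apaf1 (0.18 after F-PRT, 0.14 after S-PRT), Birc2 (0.63, 0.41), Birc5 (0.11, 0.11), Mdm4 (0.40, 0.40) and Usp7 (0.11, 0.13), and after F-PRT of Chek2 (0.30) and Pidd1 (0.01). It moved the median of all genes by 0.58 and 0.52 in bone and by 0.19 and 0.22 in skin. No member changed sign where it passed.

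Counts over all genes moved by more than 1.5 times. Skin F-PRT gave 455 (152 to 2704, the highest without the libraries in doubt), skin S-PRT 827 (268 to 4509), bone F-PRT 6161 (4669 to 11936) and bone S-PRT 5380 (4054 to 10993). F-PRT against S-PRT gave 0 (0 to 4) in skin and 1 (0 to 19) in bone, and the differences between tissues 2212 (1236 to 4203) and 1961 (1090 to 3655). The cause was not tested. Perp in bone rests on 8 to 272 expected counts per library.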
